A study of Homo sapiens with 12 samples.

Results

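*NECTIN4*, *IL21R*, *GPER1*, *PHOSPHO1*, *COL9A2*, *HTRA1*, *LMO2* and *PPP1R3C* are 8 genes that stand outside the usual list of BMP target genes and whose transcripts rose more when BMP signaling was switched on in MIB1 KO cells than in MIB1 WT cells. They were picked by that behaviour in the libraries described here, with no numeric limit, and they are 8 of the 58302 gene identifiers in the count table. Their levels and rises are therefore given as a description, with standard errors and no p-value. Counts of members past a limit stand beside the share of all genes past it, with nothing read from them. Members that passed or missed a limit are named in places, and nothing is read from that either. Values of p are given only for other genes.

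The libraries came from MIB1-iKO cells, a clonal derivative of the NCIH838 lung cancer line that carries a *MIB1* guide RNA and a doxycycline (Dox)-inducible Cas9. The methods do not say which guide or clone was sequenced. All cells spent 3 days in 50 nM of the BMP type I receptor inhibitor LDN, which the sample labels spell LDN189193, and those called MIB1 KO had 0.5 µg/mL Dox as well, which those called MIB1 WT did not. BMP4 was then given to all cells for 24 hours at 10 ng/mL, either in the continued presence of LDN (BMP-off) or with DMSO instead (BMP-on), so that BMP-off cells had the ligand but a blocked receptor. There were 3 libraries in each of the 4 groups. No sequencing batch is named. Dox was given to all KO and to no WT cells, so MIB1 loss cannot be told apart from Dox itself or from the cutting by Cas9. Nothing states that replicates were separate cultures, so p-values measure only the spread between these libraries.

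BMPs are secreted ligands that bring together type I and type II receptor kinases, which phosphorylate receptor SMAD proteins. With SMAD4, these enter the nucleus and bind GC-rich and GTCTG elements near target genes, among which the ID genes and the inhibitory SMADs are the best known. MIB1 is an E3 ubiquitin ligase known above all for the endocytosis of Notch ligands. The 8 genes are better known from other settings. *NECTIN4* is a cell adhesion protein and an antibody-drug target in urothelial cancer, *IL21R* the receptor of a lymphocyte cytokine, and *GPER1* a G protein-coupled estrogen receptor. *COL9A2* is a chain of cartilage collagen, *PHOSPHO1* a phosphatase of mineralizing matrix vesicles, and *HTRA1* a secreted serine protease. *LMO2* is an adaptor of blood cell transcription factors, and *PPP1R3C* brings protein phosphatase 1 to glycogen.

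*MIB1* transcript was lower in every KO library, at 31 to 34.4 CPM (counts scaled to library depth with edgeR's TMM factors, as CPM), than in every WT library, at 144 to 176 CPM. In BMP-on cells, KO against WT gave a log2 fold change of -2.34 (standard error 0.073, adjusted p = 9.7e-12 by edgeR with Benjamini-Hochberg adjustment). Total counts ranged from 19124010 to 29498000 per library, so that 1 CPM stood for between 19.1 and 29.2 counts. The deviation of counts from their group mean followed transcript GC content, and Spearman's rho across genes ran from -0.60 (KO BMP-off replicate 2) to 0.59 (KO BMP-off replicate 3). Of 6 epithelial markers, *KRT8* (92.7 to 192 CPM), *KRT18* (139 to 166 CPM) and *KRT7* (49.3 to 110 CPM) were highest, *EPCAM* and *CDH1* lay between 4.93 and 9.83 CPM, and *KRT19* reached 0.104 CPM at most. Of 5 lung markers, *NAPSA* was highest at 0.251 to 1.03 CPM, while *SFTPC* and *NKX2-1* reached 0.0844 and 0.0342 CPM at most. The leukocyte marker *PTPRC* was at 0 counts in every library, but 6 leukocyte markers summed to 9.68 to 14.6 CPM, nearly all of it *LCP1* (6.43 to 9.7 CPM) and *CD14* (3.01 to 4.88 CPM). The 4 blood progenitor and erythroid markers summed to 0.384 CPM at most, and the chondrocyte and osteoblast markers *COL2A1*, *ACAN*, *BGLAP* and *IBSP* summed to 0.211 CPM at most. The summed level of 4 fibroblast markers was 11.9 to 21.1 CPM with BMP-off and 29.2 to 42.5 CPM with BMP-on, almost all of it *COL1A1* (11 to 41.0 CPM), with *DCN* at 0.117 CPM at most. The part of these marker levels in the results on the 8 genes was not tested.

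The start sites of 7 of the 8 genes are held in RefSeq promoter windows (GRCh38.p14, 250 bases before and 50 after the start). A stretch from 150 to 51 bases before each start is printed here, 5′ to 3′ on the strand of the gene. Both GC-rich SMAD elements were searched on both strands in the whole window. Capitals mark GGCGCC in the first 4 stretches and GGAGCC in the last 3. *GPER1* has a pair of windows, and the downstream one is shown.
*NECTIN4*, chr1:161089609-161089708, minus strand: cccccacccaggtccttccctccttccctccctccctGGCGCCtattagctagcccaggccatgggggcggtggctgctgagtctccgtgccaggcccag
*COL9A2*, chr1:40317337-40317436, minus strand: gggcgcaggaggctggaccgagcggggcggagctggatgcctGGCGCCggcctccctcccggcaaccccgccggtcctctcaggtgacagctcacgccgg
*HTRA1*, chr10:122461403-122461502, plus strand: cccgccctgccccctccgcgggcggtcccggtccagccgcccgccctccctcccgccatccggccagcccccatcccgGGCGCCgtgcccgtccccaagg
*PPP1R3C*, chr10:91633122-91633221, minus strand: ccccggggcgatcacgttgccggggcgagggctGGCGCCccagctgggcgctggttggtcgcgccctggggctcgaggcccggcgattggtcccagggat
*PHOSPHO1*, chr17:49230838-49230937, minus strand: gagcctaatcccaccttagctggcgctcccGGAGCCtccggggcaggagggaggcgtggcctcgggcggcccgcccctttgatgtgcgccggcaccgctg
*IL21R*, chr16:27427121-27427220, plus strand: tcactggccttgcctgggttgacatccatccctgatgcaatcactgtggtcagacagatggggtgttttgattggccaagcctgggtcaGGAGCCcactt
*GPER1*, chr7:1087963-1088062, plus strand: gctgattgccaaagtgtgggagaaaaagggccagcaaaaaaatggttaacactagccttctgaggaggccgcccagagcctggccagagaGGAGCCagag
The 7 genes have 8 windows. GGCGCC was present in 4 of the 8, 1 each of *NECTIN4*, *COL9A2*, *HTRA1* and *PPP1R3C*, whereas 19.2% of all 35116 windows hold it. In *NECTIN4*, *COL9A2* and *PPP1R3C* its first base lay 113, 108 and 117 bases before the start, and in *HTRA1* 72 bases before it. *HTRA1* and *PPP1R3C* each had another copy, outside the stretch shown. GGAGCC was present in 4 of the 8 (*PHOSPHO1*, *IL21R*, *GPER1* and *COL9A2*), beside 36.0% of all windows. At least 1 of the GC-rich elements was thus found in 7 of 8 windows, all but the upstream one of *GPER1*, beside 45.3% of all windows and 11 of the 17 windows of classic BMP targets. GTCTG was found in 4 of the 8 (*IL21R*, *GPER1*, *COL9A2* and *HTRA1*), also beside 45.3% of all windows, and its copies overlapped no copy of a GC-rich element. The longer bipartite BMP element, which joins GC-rich letters to GTCT and was found in 0.35% of all windows, was in none of the members' windows. The 250 bases before the start had a GC content from 49.2% in *IL21R* to 81.2% in *HTRA1*, against a median of 58.0% over all windows. These matches describe letters in a window. No binding was measured. For *IL21R*, *GPER1*, *COL9A2* and *HTRA1* the RefSeq start lies inside the gene span that GENCODE v44 gives, so that other starts exist.

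The cell-surface genes *NECTIN4*, *IL21R* and *GPER1* were low with BMP-off in both genotypes and highest in MIB1 KO cells with BMP-on. *NECTIN4* (ENSG00000143217) spans chromosome 1 from 161070998 to 161089558 on the minus strand, and its longest transcript has 9 exons. Its counts were 18, 23 and 21 in MIB1 WT cells with BMP-off and 29, 75 and 56 with BMP-on. In MIB1 KO cells they were 24, 12 and 30 with BMP-off and 131, 86 and 127 with BMP-on. Every KO BMP-on library thus held more *NECTIN4* counts than any library of another group, although the second of them was the shallowest of all 12. Scaled to depth, *NECTIN4* reached 4.82 ± 0.283 CPM (SD, n = 3) in KO BMP-on cells and 1.93 ± 0.675 CPM (SD, n = 3) in WT BMP-on cells. In such bulk libraries, more cells with a transcript and more transcript per cell cannot be told apart. With BMP-off both genotypes stood at nearly the same level, 0.867 ± 0.192 CPM in WT cells against 0.860 ± 0.391 CPM in KO cells (SD, n = 3). The WT BMP-on libraries were spread widely, and replicate 1, at 1.22 CPM, lay just below the highest KO BMP-off library, at 1.26 CPM. The log2 fold change with BMP was 1.20 (standard error 0.30) in WT and 2.49 (standard error 0.26) in KO cells.

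*IL21R* (ENSG00000103522, chromosome 16 from 27402174 to 27452042, plus strand, 9 exons) showed the same order at a lower level. WT cells gave 4, 7 and 10 counts with BMP-off and 17, 20 and 23 with BMP-on. KO cells gave 6, 4 and 10 counts with BMP-off and 48, 36 and 49 with BMP-on. In CPM, the KO BMP-on libraries were close together, between 1.84 and 1.90, and all were above the highest WT BMP-on library at 0.826. The mean was 7.11 times that of KO BMP-off, against a ratio of 2.47 in WT cells. Taken over the summed counts, the KO ratio was 7.24 with an exact 95% interval from 4.51 to 12.2, and the WT ratio 2.58 with an interval from 1.54 to 4.46. These intervals cover counting error only.

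*GPER1* (ENSG00000164850, chromosome 7 from 1082208 to 1093815, plus strand, 3 exons) had the fewest counts of the 8 genes. WT libraries held 1, 2 and 3 counts with BMP-off and 6, 12 and 10 with BMP-on. KO libraries held 7, 1 and 3 counts with BMP-off and 30, 16 and 24 with BMP-on. BMP-off libraries held at most 7 counts, and the KO BMP-on libraries were again the highest, at 0.836 to 1.15 CPM. The ratio of summed counts with BMP was 6.93 in KO cells, with an exact 95% interval from 3.65 to 14.5. In WT cells it was 4.21 with an interval from 1.71 to 12.4, so that counting error alone leaves room for equal ratios. Between genotypes with BMP-on, where counts were higher, the ratio was 2.84 with an interval from 1.81 to 4.58. *GPER1* passed the filter on low counts (about 0.401 CPM) through all KO BMP-on libraries and 1 WT BMP-on library, and so was tested because of the group in which it was high. *IL21R* and *COL9A2* reached that level in all BMP-on libraries but in at most 1 library of each BMP-off group. With only the BMP-off groups kept, 5 of the 8 genes were tested.

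**Figure D1:**
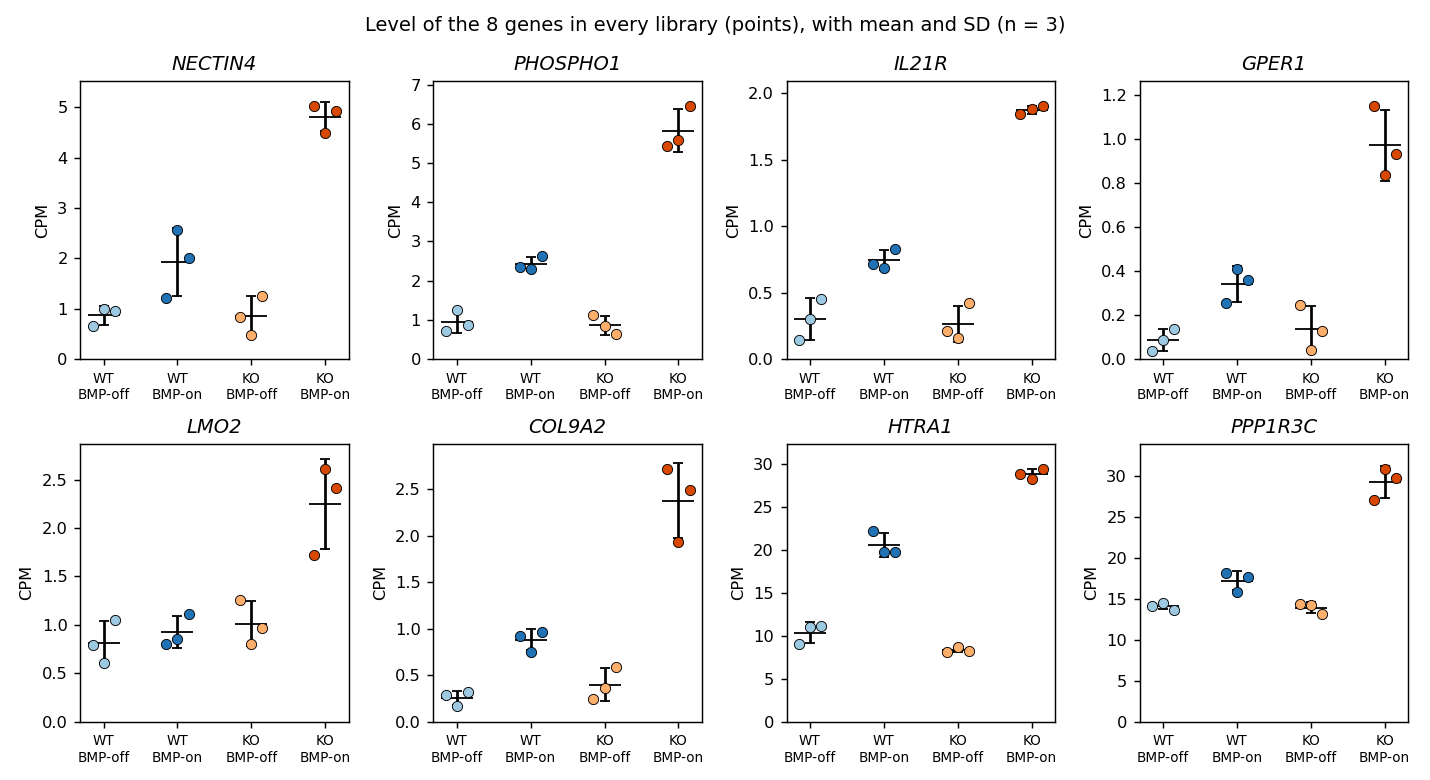
Level of each of the 8 genes in CPM (linear axis from 0, a separate scale for each gene) in the 3 libraries of each group (points), with the mean and SD. KO BMP-on libraries lie above all other libraries for each gene, from 0.836 CPM for the lowest *GPER1* library to 30.9 CPM for the highest *PPP1R3C* library. *LMO2* differs from the others in having WT BMP-on libraries that overlap those of WT BMP-off. For *NECTIN4*, WT BMP-on replicate 1 lies below the highest KO BMP-off library.

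The genes of matrix and mineral, *COL9A2*, *PHOSPHO1* and *HTRA1*, were higher with BMP-on than with BMP-off in both genotypes. *PHOSPHO1* (ENSG00000173868, chromosome 17 from 49223366 to 49230787, minus strand, 3 exons) gave 20, 29 and 19 counts in WT cells with BMP-off and 56, 67 and 73 with BMP-on. In KO cells it gave 32, 21 and 15 counts with BMP-off and 142, 107 and 166 with BMP-on. The 4 groups fell into 3 levels, with both BMP-off groups overlapping at 0.631 to 1.26 CPM, WT BMP-on above them at 2.29 to 2.62 CPM and KO BMP-on at 5.44 to 6.45 CPM. Its log2 fold change with BMP was 1.37 (standard error 0.21) in WT and 2.73 (standard error 0.19) in KO cells.

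*COL9A2* (ENSG00000049089, chromosome 1 from 40300489 to 40317813, minus strand, 31 exons) had 8, 4 and 7 counts in WT cells with BMP-off and 22, 22 and 27 with BMP-on. KO cells had 7, 9 and 14 counts with BMP-off and 71, 37 and 64 with BMP-on. KO BMP-off replicate 3, with 0.589 CPM, was the highest library without BMP signaling, but it remained below the lowest WT BMP-on library at 0.753 CPM. The mean in KO BMP-on cells, 2.38 ± 0.405 CPM (SD, n = 3), was 2.69 times that in WT BMP-on cells, 0.884 ± 0.115 CPM (SD, n = 3). With BMP-off the ratio of summed counts between KO and WT was 1.49, with an exact 95% interval from 0.810 to 2.80.

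*HTRA1* (ENSG00000166033, chromosome 10 from 122458551 to 122514907, plus strand, 9 exons) had far more counts, which together with those of *PPP1R3C* gave the narrowest intervals. WT cells held 251, 252 and 245 counts with BMP-off and 527, 575 and 552 with BMP-on. KO cells held 234, 215 and 195 counts with BMP-off and 752, 540 and 757 with BMP-on. In CPM all 4 groups were separate. *HTRA1* was lowest in KO BMP-off cells (8.16 to 8.64 CPM), followed by WT BMP-off (9.02 to 11.1 CPM), WT BMP-on (19.7 to 22.2 CPM) and KO BMP-on (28.2 to 29.4 CPM). It was the only one of the 8 genes whose BMP-off groups did not overlap, which 5.96% of all genes tested shared with KO lower, and its log2 fold change of -0.31 there (standard error 0.093) did not reach the adjusted p limit. The rise in KO cells was 20.5 CPM (standard error 0.377) and that in WT cells 10.2 CPM (standard error 1.07), and with BMP-on the KO mean was 1.40 times the WT mean.

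*LMO2* and *PPP1R3C* differed little between BMP-on and BMP-off in WT cells. *LMO2* (ENSG00000135363, chromosome 11 from 33858576 to 33892076, minus strand, 6 exons) gave 22, 14 and 23 counts in WT cells with BMP-off and 19, 25 and 31 with BMP-on. KO cells gave 36, 20 and 23 counts with BMP-off and 45, 50 and 62 with BMP-on. The WT groups overlapped, and WT BMP-on (0.802 to 1.11 CPM) also overlapped KO BMP-off (0.803 to 1.26 CPM). Only KO BMP-on stood apart, at 1.72 to 2.61 CPM. The log2 fold change with BMP was 0.19 (standard error 0.28) in WT cells and 1.12 (standard error 0.23) in KO cells. Without WT BMP-off replicate 2 the WT value was 0.034, and without WT BMP-off replicate 3 it was 0.39.

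*PPP1R3C* (ENSG00000119938, chromosome 10 from 91628442 to 91633071, minus strand, 2 exons) is intracellular as well and had the highest counts with BMP-off. WT cells held 395, 333 and 301 counts with BMP-off and 432, 465 and 494 with BMP-on. KO cells held 412, 356 and 313 counts with BMP-off and 708, 591 and 768 with BMP-on. The BMP-off groups overlapped between 13.2 and 14.5 CPM, and WT BMP-on libraries lay a little higher, at 15.9 to 18.2 CPM. KO BMP-on reached 27.1 to 30.9 CPM. The rise of 3.17 CPM (standard error 0.743) in WT cells was 20.7% of the rise of 15.3 CPM (standard error 1.18) in KO cells.

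Levels of different genes are compared per length of transcript, by the RPKM values of the authors (reads scaled to transcript length and depth, SD, n = 3 each). In KO BMP-on cells *HTRA1* was highest at 14.0 ± 0.281 RPKM, followed by *PPP1R3C* at 11.9 ± 0.823 RPKM. *PHOSPHO1* came next at 2.74 ± 0.259 RPKM and *NECTIN4* at 1.41 ± 0.0796 RPKM. *LMO2* at 0.957 ± 0.201 RPKM and *COL9A2* at 0.855 ± 0.143 RPKM had overlapping libraries. So had *IL21R* at 0.377 ± 0.00748 RPKM and *GPER1* at 0.318 ± 0.0515 RPKM, the lowest of the 8 genes, while all other neighbours in this order were separate. In WT BMP-off cells *PPP1R3C* (5.86 ± 0.162 RPKM) stood above *HTRA1* (5.12 ± 0.542 RPKM), and *GPER1* was again the lowest at 0.0287 ± 0.0166 RPKM.

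Between MIB1 KO and WT cells with BMP-on, the log2 fold changes of the 8 genes ran from 0.49 for *HTRA1* to 1.49 for *GPER1*, with a median of 1.28 against 0.0025 over all 17188 genes tested. Groups did not overlap for 8 of 8 genes, where 11.4% of all genes tested had non-overlapping groups with KO higher. A called gene had an edgeR adjusted p no higher than 0.05 and changed by 1 or more on the log2 scale, and 6 of the 8 were called, beside 0.128% of all genes called higher. By the adjusted p alone the count was 8, beside 1.32% of all genes. As the 8 genes were chosen for this behaviour, nothing is read from these counts. *HTRA1* and *PPP1R3C* were the members below the fold limit. With BMP-off the log2 fold changes of KO against WT ran from -0.31 for *HTRA1* to 0.75 for *GPER1* with a median of -0.008. That of *GPER1* rested on few counts and came to 1.20 without WT BMP-off replicate 3 and to -0.00069 without KO BMP-off replicate 1. The value of *COL9A2*, 0.57, came to 0.20 without KO BMP-off replicate 3.

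Between BMP-on and BMP-off in WT cells, 7 of the 8 genes had groups that did not overlap (all but *LMO2*), beside 11.2% of all genes tested, and 4 were called (*NECTIN4*, *PHOSPHO1*, *IL21R* and *COL9A2*), beside 0.349% of all genes called higher. *HTRA1* passed the adjusted p as well but had a log2 fold change of 0.99 (standard error 0.086), giving 5 by the adjusted p alone beside 1.91% of all genes. The count of 4 fell to 2 without WT BMP-off replicate 1, KO BMP-off replicate 1, KO BMP-on replicate 2 or KO BMP-on replicate 3. In KO cells all 8 were called, beside 1.41% of all genes called higher, and all 8 had non-overlapping groups, beside 17.9%. By the adjusted p alone 11.1% of all genes were higher there. *IL21R*, *GPER1* and *COL9A2* passed the filter on low counts through BMP-on libraries. As the 8 genes were also chosen for these rises, nothing is read from these counts. The median log2 fold change of the 8 genes was 1.27 in WT and 2.55 in KO cells, against medians over all genes of 0.0016 and 0.0056.

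**Figure D2:**
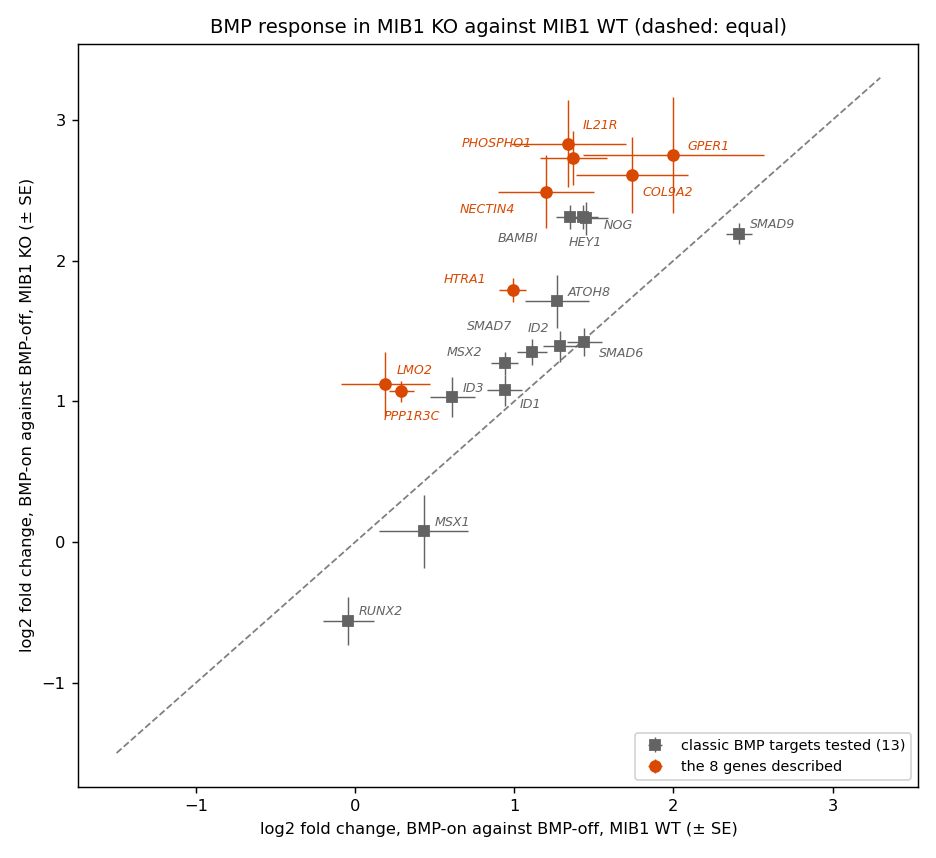
Log2 fold change of BMP-on against BMP-off in MIB1 WT (x axis) and MIB1 KO cells (y axis), with standard errors as bars, for the 8 genes (circles) and the 13 classic BMP targets tested (squares), and a dashed line where both responses are equal. All 8 genes lie above the line, as they were chosen to, and *BAMBI*, *HEY1* and *NOG* lie beside *NECTIN4* while 4 of the 13 targets (*SMAD6*, *SMAD9*, *MSX1* and *RUNX2*) lie below the line.

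The difference between both BMP responses, KO minus WT on the log2 scale, was largest for *IL21R* at 1.49 (standard error 0.52), *PHOSPHO1* at 1.36 (standard error 0.31) and *NECTIN4* at 1.29 (standard error 0.43). It was 0.93 (standard error 0.36) for *LMO2*, 0.88 (standard error 0.49) for *COL9A2* and 0.75 (standard error 0.86) for *GPER1*. The abundant genes had the most precise differences, 0.80 (standard error 0.12) for *HTRA1* and 0.78 (standard error 0.11) for *PPP1R3C*. Those of the low genes thus came with standard errors up to several times larger, and the order within the 8 was not resolved. By the adjusted p alone 2 of the 8 passed (*HTRA1* and *PPP1R3C*), beside 0.0407% of all genes with a positive difference, and as the genes were chosen for this difference nothing is read from that count. With the fold limit as well, 0 of the 17188 genes were called by edgeR, while 1819 had an unadjusted p under 0.05, DESeq2 called 3 and limma-voom 0. The difference of *GPER1* came to 0.29 without WT BMP-off replicate 3 and to 1.49 without KO BMP-off replicate 1. That of *IL21R* came to 1.08 without WT BMP-off replicate 3 and to 1.94 without KO BMP-off replicate 3. With a correction for the GC trend of each library the difference was 1.11 for *PHOSPHO1*, 0.63 for *COL9A2*, 0.56 for *GPER1* and 0.66 for *HTRA1*. These were lower than without the correction, whereas that of *PPP1R3C* was higher, at 0.83. The part of GC content in these differences was not tested further.

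**Figure D3:**
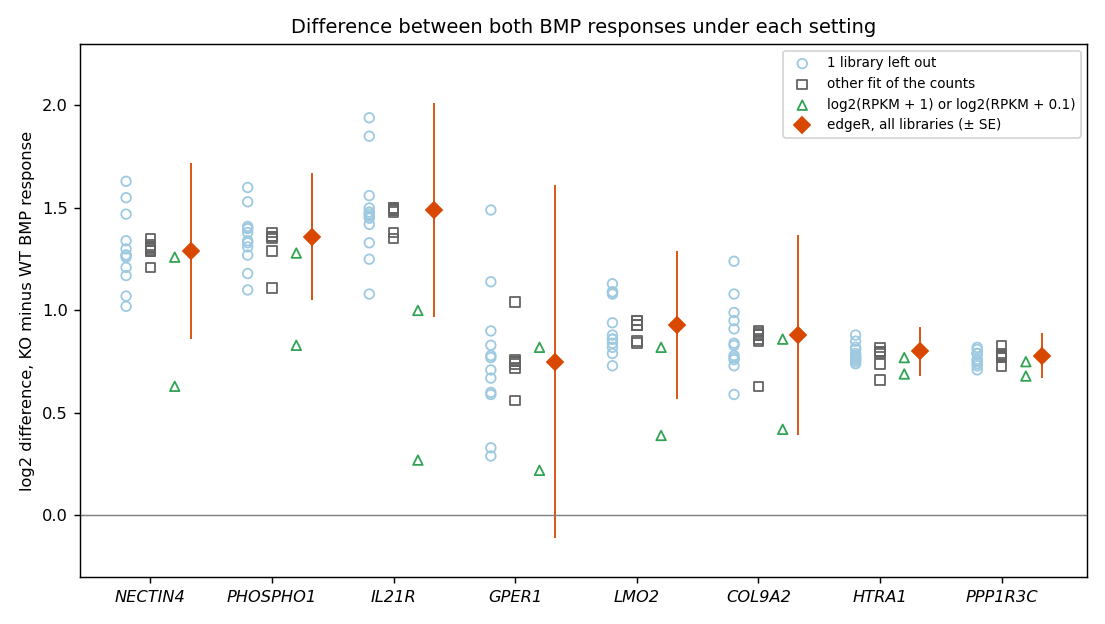
Difference between the BMP response in MIB1 KO and in MIB1 WT cells (log2 scale) for each of the 8 genes, from edgeR on all 12 libraries (diamonds, with standard errors), with 1 library left out (circles), with other fits of the counts (squares) and from the RPKM values (triangles). All points are above 0, as the genes were chosen for this difference. The points of *HTRA1* and *PPP1R3C* lie close together. Those of *IL21R* spread from 0.27 to 1.94 and those of *GPER1* from 0.22 to 1.49.

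Beside the 8 genes, 13 of 16 classic BMP targets were tested. In WT cells 11 of the 13 passed the adjusted p and were higher with BMP-on, and in KO cells 11 were higher (1.91% and 11.1% of all genes) and 1, *RUNX2*, was lower, as were 10.9% of all genes. With libraries left out in turn, the call of *RUNX2* was lost with 5 of the 12, that of *ID3* in WT cells with 8 and that of *SMAD6* between genotypes with 5. On the log2 scale, the BMP pseudoreceptor *BAMBI* rose by 1.35 (standard error 0.086, edgeR adjusted p = 7.17e-08) in WT and 2.31 (standard error 0.083, edgeR adjusted p = 2.22e-11) in KO cells. The difference between both responses passed the test for *BAMBI* at 0.96 (standard error 0.12, edgeR adjusted p = 0.00263) and for the transcriptional repressor *HEY1* at 0.88 (standard error 0.13, edgeR adjusted p = 0.0112). The other 11 did not pass. The call of *HEY1* was lost when any of 6 of the 12 libraries was left out (highest adjusted p over all alternatives 0.0753), whereas that of *BAMBI* passed in all 22 alternatives run. With BMP-on, 8 of the 13 passed and were higher in KO than in WT cells, beside 1.32% of all genes. Their log2 fold changes ran from 0.41 to 1.26, the latter for *HEY1* (standard error 0.08, edgeR adjusted p = 1.57e-07). With BMP-off, *SMAD9* was the only one to pass, 0.97 higher in KO cells (standard error 0.088, edgeR adjusted p = 5.65e-05). The median over the list with BMP-on was 0.52, below the 1.28 of the 8 genes, which were selected for it.

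The profile of each gene over the means of the 4 groups was compared with those of the genes that had at least 50 counts per library on average, as the root mean square difference of centred log2(CPM + 0.1) values. *COL9A2* was closest to *HEY1* (0.049) and to the BMP antagonist *NOG* (0.051), and *GPER1* to the same pair (0.072 and 0.074). *NECTIN4* was closest to *BAMBI* (0.11) and *PHOSPHO1* (0.12), *IL21R* to *NECTIN4* (0.053) and *PHOSPHO1* (0.095), and *PHOSPHO1* to *NECTIN4* (0.12) and *BAMBI* (0.14). *HTRA1* was nearest to *PLXNA2* (0.089) and *CRIP2* (0.12), and *LMO2* to *CD40* and *TMEM154* (both 0.13). *PPP1R3C* was nearest to the homeobox gene *GBX2* (0.0051), whose means of 3.67, 4.53, 3.64 and 7.66 CPM in WT BMP-off, WT BMP-on, KO BMP-off and KO BMP-on ran parallel to its own 14.1, 17.3, 13.9 and 29.3 CPM, and then to *ANXA2R* (0.054). At this minimum, *COL9A2*, *GPER1*, *NECTIN4*, *IL21R* and *PHOSPHO1* were thus closest to classic BMP targets or to each other. *HTRA1*, *LMO2* and *PPP1R3C* were closest to genes of neither kind. With a minimum of 10 counts, *COL9A2* and *GPER1* kept *HEY1* and *NOG*, but *BAMBI* dropped out for *NECTIN4* and *PHOSPHO1*. *NECTIN4* was then closest to *IL21R* (0.053) and *ST6GALNAC2* (0.074), and *PHOSPHO1* to *IL21R* (0.095) and *NECTIN4* (0.12). *IL21R* was closest to *NECTIN4* (0.053) and *ST6GALNAC2* (0.073). With only 4 group means a close profile is easily found, and this is a description.

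Relatives of the 8 genes that passed the test mostly did so with smaller fold changes than the 8 genes, which were selected for their rise. Among the 4 tested nectins and partners, *AFDN*, which links nectins to actin, was the only one to pass in any comparison, and it fell in KO cells with BMP-on (log2 fold change -0.25, standard error 0.063, edgeR adjusted p = 0.00945). *NECTIN1* stood between 48.8 and 51.2 CPM in the 4 group means and *NECTIN2* between 62.2 and 72.8 CPM. Of 7 tested genes around *IL21R*, the receptor chain *IL4R* passed in 3 comparisons. On the log2 scale it rose by 0.31 (standard error 0.07, edgeR adjusted p = 0.0166) in WT cells and 0.58 (standard error 0.07, edgeR adjusted p = 2.02e-05) in KO cells, and with BMP-on it was 0.27 higher in KO cells (standard error 0.07, edgeR adjusted p = 0.0429). *JAK3*, a kinase of the common gamma chain, rose in KO cells by 0.82 (standard error 0.19, edgeR adjusted p = 0.00525). *IL2RG*, the chain with which *IL21R* pairs, and *IL21* itself did not reach the filter on low counts. Of the estrogen receptors *ESR1* and *ESR2*, only *ESR2* was tested, at 0.264 to 0.532 CPM, and it passed in no comparison. Calls close to the limit depended on single libraries. That of *IL4R* between genotypes was lost with 8 of the 12 left out in turn and its call in WT cells with 3, that of *AFDN* with 1, and that of *JAK3* with none. Over all alternatives, the highest adjusted p of these calls was 0.196, 0.0807, 0.0556 and 0.0221.

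Of 11 tested genes of cartilage and mineral, 2 passed and were higher with BMP-on in WT cells and 4 in KO cells, beside 1.91% and 11.1% of all genes. In KO cells 1 gene, *RUNX2*, was lower, as were 10.9% of all genes. *SOX9*, the regulator of cartilage, rose by 0.94 (standard error 0.078, edgeR adjusted p = 1.89e-06) in WT and by 1.17 (standard error 0.075, edgeR adjusted p = 3.29e-08) in KO cells. The pyrophosphate transporter *ANKH* rose by 0.27 (standard error 0.044, edgeR adjusted p = 0.00162) and by 0.55 (standard error 0.044, edgeR adjusted p = 3.46e-07). *COL1A1* rose in KO cells by 1.39 (standard error 0.20, edgeR adjusted p = 0.000602) and *COL11A2*, at under 1 CPM, by 1.11 (standard error 0.38, edgeR adjusted p = 0.0466). *COL9A3*, a partner chain of *COL9A2*, had a log2 fold change of 0.83 in KO cells that did not pass (standard error 0.29, edgeR adjusted p = 0.0621). With BMP-on, *SOX9* was 0.46 higher in KO than in WT cells (standard error 0.072, edgeR adjusted p = 0.00139), *ANKH* 0.17 higher (standard error 0.044, edgeR adjusted p = 0.0485) and the matrix protein *MATN3* lower (log2 fold change -0.27, standard error 0.062, edgeR adjusted p = 0.0222). The call of *COL11A2* was lost with 8 of the 12 libraries left out in turn, that of *ANKH* between genotypes with 10 and that of *MATN3* with 6. Over all alternatives, their highest adjusted p was 0.165, 0.245 and 0.103. The median of the list in KO cells was 0.55, against 2.61 for *COL9A2* and 2.73 for *PHOSPHO1*, which were selected for their rise.

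Among 7 tested genes of the LMO family and the *LMO2* complex, *GATA2*, a transcription factor of blood progenitors, rose by 1.48 (standard error 0.11, edgeR adjusted p = 7.04e-06) in WT and 1.54 (standard error 0.11, edgeR adjusted p = 9.21e-07) in KO cells. *LMO1* rose in KO cells by 1.74 (standard error 0.46, edgeR adjusted p = 0.0131) from a mean of 0.239 to 0.793 CPM, and *LYL1* by 0.93 (standard error 0.28, edgeR adjusted p = 0.0274) from 0.722 to 1.36 CPM. *TCF12* fell by 0.14 (standard error 0.049, edgeR adjusted p = 0.0482). With BMP-on *GATA2* was 0.51 higher in KO than in WT cells (standard error 0.10, edgeR adjusted p = 0.0164). *HTRA2* and *HTRA3* passed in no comparison, with log2 fold changes of 0.14 and 0.041 in KO cells (standard errors 0.097 and 0.17). Of 16 tested genes of glycogen metabolism and protein phosphatase 1, 2 rose and 3 fell in KO cells, beside 11.1% and 10.9% of all genes. *PPP1R3B*, another glycogen-targeting subunit, rose by 0.44 (standard error 0.055, edgeR adjusted p = 2.76e-05), reached 0.22 in WT cells (standard error 0.055, edgeR adjusted p = 0.0346) and with BMP-on was 0.36 higher in KO cells (standard error 0.055, edgeR adjusted p = 0.00113). The branching enzyme *GBE1* rose by 0.16 (standard error 0.054, edgeR adjusted p = 0.0449), while *PPP1R3D* and the catalytic subunits *PPP1CB* and *PPP1CC* fell by 0.21, 0.15 and 0.18 (edgeR adjusted p = 0.0209, 0.0165 and 0.0201). When libraries were left out in turn, the call of *GBE1* was lost with each of the 12, those of *TCF12* and of *PPP1R3B* in WT cells with 9 and 8, those of *LYL1*, *PPP1CB*, *PPP1CC* and *PPP1R3D* with 4, 4, 3 and 3, and those of *GATA2* between genotypes and *LMO1* in KO cells with 3 and 1. The highest adjusted p among all their alternatives was 0.505, for *PPP1CB*.

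Of 21 genes that overlap the 8 or are the nearest protein-coding genes on each side, 14 were tested. By the adjusted p alone, 1 was higher with BMP-on in WT cells (1.91% of all genes) and 2 in KO cells (11.1%), and 1 was lower in KO cells (10.9%). *IL4R*, which ends 37396 bases before *IL21R*, passed as given above. *HECTD2*, left of *PPP1R3C*, was 0.29 higher in KO cells (standard error 0.091, edgeR adjusted p = 0.0313) and *CAPRIN1*, beside *LMO2*, was lower (log2 fold change -0.13, standard error 0.041, edgeR adjusted p = 0.0302). Both calls were lost with some libraries left out, 5 and 4 of the 12. *ABI3* ends 141 bases from *PHOSPHO1* on the other strand and summed to 57 counts over all 12 libraries, with 8 at most in 1 library. Its means in WT and KO cells were 0.115 and 0.121 CPM with BMP-off and 0.21 and 0.328 CPM with BMP-on. It did not reach the filter on low counts, and whether its reads and those of *PHOSPHO1* were kept apart was not tested. Some overlapping genes bear on how far counts can be assigned, as it is not stated whether counting used the strand. *NECTIN4-AS1* had 40 counts over all libraries, with means of 0.237 and 0.25 CPM with BMP-on in WT and KO cells and 0.0265 and 0.0257 CPM with BMP-off. *IL21R-AS1* had 3 counts in all. *C7orf50*, which spans *GPER1* on the other strand, had means of 16.5 to 22.2 CPM, and its log2 fold change of 0.39 in KO cells did not pass (standard error 0.19, edgeR adjusted p = 0.171). Without strand, reads of *C7orf50* could not be told apart from those of *GPER1* where their exons meet.

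**Figure D4:**
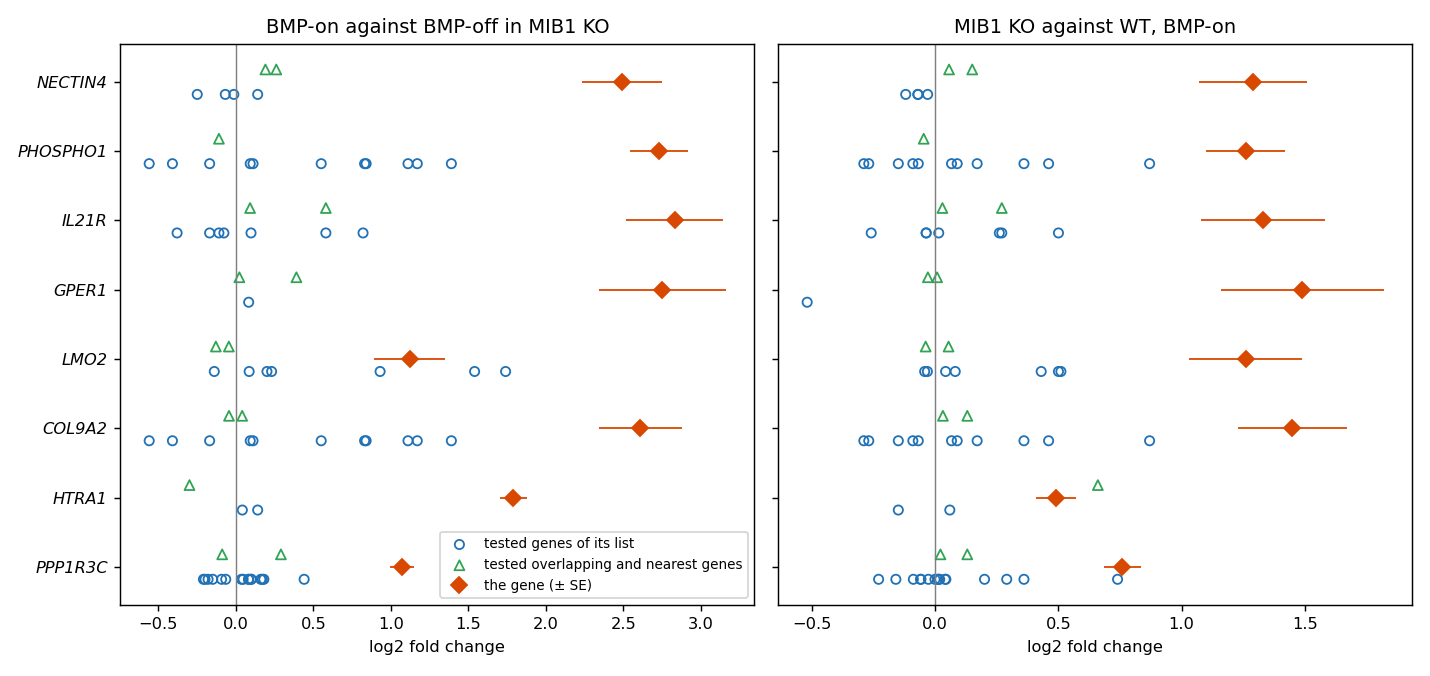
Log2 fold change of each of the 8 genes (diamonds, with standard errors), of the tested genes of its list (blue circles; *COL9A2* and *PHOSPHO1* share 1 list) and of the tested overlapping and nearest genes (green triangles). For BMP-on against BMP-off in KO cells (left) the 8 genes run from 1.07 to 2.83 while the neighbours stay at or below 0.58. Of the list genes there, *LMO1* at 1.74 and *GATA2* at 1.54 lie above *LMO2* at 1.12. With BMP-on in KO against WT (right) the 8 genes run from 0.49 to 1.49, and the highest neighbour, *DMBT1* beside *HTRA1*, lies at 0.66, which did not pass (edgeR adjusted p = 0.547).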

How the data were processed

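RNA of 12 libraries of MIB1-iKO cells was sequenced as 50-bp single-end reads, and the groups were taken from the sample titles. Per the methods, the authors first discarded ribosomal reads and mapped what remained with GSNAP (GRCh38). Exonic reads per RefSeq gene were then counted with HTSeqGenie, although the rows of the table are Ensembl identifiers. The labels describe a low-input and a stranded library kit without saying which was used, and strand use in counting is not given in the sources used here. The deposited counts are whole numbers without normalization. The deposited RPKM values were normalized by the authors and served for levels per length and as alternatives. All 12 sample columns of each table were used, with 0 left out.

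Symbols, positions and GC content came from GENCODE v44 (57532 of 58302 identifiers) and promoters from RefSeq windows on GRCh38.p14. Total counts were 19124010 to 29498000. A robust quasi-likelihood model in edgeR 4.0.16 (R 4.3.3), with TMM scaling and edgeR's filter on low counts (17188 genes), was fitted to all libraries, and p-values were adjusted by Benjamini-Hochberg within each comparison. Thresholds are those of the study, which used limma-voom after quantile normalization. Ratios of summed counts have exact binomial 95% intervals. Alternatives used DESeq2 1.42.0, limma 3.58.1, other scalings and filters, a replicate block, a GC correction (loess, span 0.4), RPKM values and each library left out. The steps were tested on simulated data. Of 18 pairs of libraries with the same replicate number, 2 had residuals correlated above 0.1, so numbers were not taken as pairs.

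The 8 genes, the gene lists and the tests were chosen with earlier results of these data known. Genes named beside the 8 are those of 8 lists with an adjusted p of at most 0.05 (at most 6 per list and comparison, largest change first), the overlapping and nearest protein-coding genes, and the 2 closest profiles. List members named with values that did not pass (*NECTIN1*, *NECTIN2*, *COL9A3*, *HTRA2*, *HTRA3*, *ESR2*) or beside libraries left out and in a caption (*ID3*, *SMAD6*, *SMAD9*, *MSX1*, *RUNX2*) were added after their values were seen. A gene that the rule took is not reported here.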

Additional observations from a re-analysis of the deposited data

Results flagged for a closer look

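The BMP responses of MIB1 KO and WT cells differed by the edgeR interaction test for 2 classic BMP targets. The difference was 0.96 on the log2 scale for *BAMBI* (standard error 0.12, edgeR adjusted p = 0.00263), and it kept its direction and passed in all 22 alternatives, between 0.89 and 1.06. For *HEY1* it was 0.88 (standard error 0.13, edgeR adjusted p = 0.0112), between 0.81 and 0.94 in the alternatives, of which 15 of 22 passed.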

How the results depend on the processing

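The log2 fold changes of the 8 genes kept a positive sign under every alternative run for the BMP response in both genotypes, for KO against WT with BMP-on and for the interaction (715 values in all), and with BMP-off 85 of 178 were positive. The 8 genes were chosen for their rises and every alternative used the same libraries, so nothing is read from these signs. Of the genes of the 8 lists and the neighbouring genes that passed the adjusted p, 13 of 16 in WT cells and 18 of 31 in KO cells passed in all alternatives, as did 10 of 15 (with *MIB1*) for KO against WT with BMP-on, and none of them changed direction.

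In the analysis reported, 73 genes were called in WT cells, 286 in KO cells, 24 for KO against WT in BMP-on cells, 2 in BMP-off cells and 0 for the interaction. By the adjusted p alone, 674 genes passed in WT cells and 3777 in KO cells. KO against WT gave 630 (BMP-on) and 7 (BMP-off), and the interaction 16, of which 2 were members. With both limits on log2(RPKM + 1), the first 4 counts were 16, 55, 5 and 1, with 0, 2 and 0 members called in WT cells, KO cells and KO against WT with BMP-on, as the added 1 shrinks changes of low genes. With log2(RPKM + 0.1) they were 170 in KO cells, 13 with BMP-on and 1 with BMP-off, with 2 members called in WT cells. At least 10 counts in every library removed *IL21R*, *GPER1* and *COL9A2* from the test and left 174 genes in KO cells and 12 and 1 between genotypes (BMP-on, BMP-off), with 2, 5 and 3 members in WT cells, KO cells and with BMP-on. Only the groups compared gave 40 with BMP-on, and the cause was not tested. For the interaction, DESeq2 called 3 genes, no filter 15 with 2 members, and the GC correction 7, against 0.

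With each library left out in turn, counts ran from 59 to 87 in WT cells (2 to 5 members), 247 to 443 in KO cells (7 to 8 members), 19 to 33 with BMP-on (5 to 6 members), 2 to 6 with BMP-off and 0 to 8 for the interaction (0 to 1 member). The highest counts came without KO BMP-off replicate 3 in KO cells and without WT BMP-off replicate 1 with BMP-off and in the interaction, which also had 6, 1 and 1 without KO BMP-off replicate 3, WT BMP-on replicate 1 and KO BMP-on replicate 1. Quantile normalization changed the split of higher and lower calls from 243 and 43 to 206 and 69 in KO cells and from 22 and 2 to 19 and 5 with BMP-on.

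With the replicate number as a block, 68, 281, 22 and 2 genes were called in the first 4 comparisons, 2 members in WT cells, and the call of *HEY1* in the interaction was lost. The closest profiles changed for 6 of the 8 genes with a minimum of 10 counts in place of 50, while the promoter motifs were found in as many genes without the 50 bases after the start. Depth limits *GPER1*, *IL21R* and *COL9A2* with BMP-off, where single libraries held between 1 and 14 counts.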
